A study of Mus musculus with 30 samples.

Results

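Proteasome subunit expression was described in F4/80-positive macrophages of Eµ-TCL1 mice, over 38 genes chosen by a platform symbol of Psma, Psmb, Psmc or Psmd followed by a number, a choice that leaves out 1 gene of this pattern, which is not analysed here. The platform carried 69 probes for the 38 genes among 45281 probes, and 34 of them, with 57 probes, were among the 11937 genes detected often enough to be tested. Psma1, Psma3, Psma6 and Psmd3 had no probe detected on enough arrays, and they are not described further. Sorted cells came from bone marrow (BM) or spleen (SP) of C57BL/6 mice, each array holding RNA from 1 sample. Every mouse, the non-leukaemic ones included, carried 1 copy of the TCL1 transgene (TCL1+/wt), whose Eµ enhancer drives the human TCL1 oncogene in B cells and gives a disease like human chronic lymphocytic leukaemia. Wild-type mice (WT) were Mif+/+ and knockout mice (KO) were Mif-/-, so all cells of the knockouts, not the macrophages alone, lacked macrophage migration inhibitory factor. The 8 groups were WT-l-BM (n = 5), WT-nl-BM (n = 3), KO-l-BM (n = 6), KO-nl-BM (n = 3), WT-l-SP (n = 3), WT-nl-SP (n = 3), KO-l-SP (n = 4) and KO-nl-SP (n = 3), with l for leukaemic and nl for non-leukaemic mice. Per the labels, leukaemic mice were 2 to 5 and non-leukaemic mice 10 to 15 months old. Age therefore changes with leukaemia in every leukaemia comparison and cannot be told apart from it, and since the disease comes with age in this model, the order of these ranges in the labels is open to doubt. The labels do not tie arrays to animals, and the p-values below therefore reflect the spread among arrays, part of which may be technical.

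The proteasome degrades proteins that carry ubiquitin chains. Its core particle is a barrel of alpha and beta subunits, a few of the beta subunits cut the substrate, and the regulatory particle, built of a base with ATPases and a lid of non-ATPases, binds, unfolds and feeds substrates into the barrel. In cells exposed to interferon gamma, and constitutively in many leukocytes, the catalytic beta subunits are exchanged during assembly for Psmb8, Psmb9 and Psmb10, and this immunoproteasome yields peptides suited to MHC class I presentation, a known function of activated macrophages.

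Raw median intensity was 76.5 to 96.8 and 36.4% to 41% of probes were detected per array. Mif was 10.41 to 12.38 on the normalised log2 scale on the wild-type arrays and 4.14 to 5.07 on the knockout arrays, as labelled. The macrophage marker Adgre1, which encodes F4/80, was detected throughout, at 7.7 to 10.75. The mean of 16 neutrophil genes nevertheless spanned 5.73 to 11.85 and that of 14 erythroid genes 4.57 to 9.3 over the arrays, while that of 8 B cell genes stayed at 4.6 to 5.95. For 5 arrays (KO-l-BM replicate 1, KO-l-SP replicate 2, KO-nl-SP replicate 6, WT-l-BM replicate 2 and WT-l-SP replicate 3) the most similar array came from the other tissue. Values without these 5 arrays are given beside many of the tissue and spleen results of the subunits, but not for genes outside the proteasome subunits. In sorted cells analysed in bulk, fewer cells of a type and less RNA per cell cannot be told apart. Slides were inferred from the array column names, by the number that stands before the last letter, which gave 6 slides. Slide 6 held 3 KO-l-BM and 3 WT-l-BM arrays and no other group.

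The immunoproteasome subunits Psmb8, Psmb9 and Psmb10 were the most variable class among samples of the same group, and they varied together. Psmb9 lies on chromosome 17 head to head with Tap1, the gene of the transporter that carries proteasome products to MHC class I, and Psmb8 is the next gene. Tap1 was among the 5 genes that followed Psmb9 most closely here, so the 225 bases between the Psmb9 and Tap1 starts are shown first, at chr17:34187331-34187555 on the minus strand (RefSeq, GRCm38.p6). They are followed by the 250 bases before the start of Psmb8, at chr17:34197945-34198194 on the plus strand, and of Psmb10, at chr8:105938393-105938642 on the minus strand. Capitals mark the motifs that were found.
Psmb9: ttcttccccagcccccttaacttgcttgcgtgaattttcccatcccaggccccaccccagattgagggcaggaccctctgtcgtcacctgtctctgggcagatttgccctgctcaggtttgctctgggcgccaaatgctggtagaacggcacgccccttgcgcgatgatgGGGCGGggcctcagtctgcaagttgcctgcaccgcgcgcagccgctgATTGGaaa
Psmb8: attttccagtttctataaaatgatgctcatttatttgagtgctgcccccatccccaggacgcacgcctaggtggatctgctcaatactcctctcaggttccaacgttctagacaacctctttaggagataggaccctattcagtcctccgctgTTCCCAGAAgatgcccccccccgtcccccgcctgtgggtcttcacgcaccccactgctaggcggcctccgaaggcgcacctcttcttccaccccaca
Psmb10: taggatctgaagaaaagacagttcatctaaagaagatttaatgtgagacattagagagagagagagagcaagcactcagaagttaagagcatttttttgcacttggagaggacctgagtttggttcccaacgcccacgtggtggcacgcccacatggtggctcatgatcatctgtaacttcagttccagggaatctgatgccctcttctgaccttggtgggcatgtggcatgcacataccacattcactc

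Motifs were searched on both strands of the 250 bases before each start. The interferon gamma activated site (GAS, TTCNNNGAA) was found before Psmb8, its first base 97 bases before the start, and in no other of the 33 windows of the 31 subunit genes that the promoter table holds. Of all 32851 promoter windows 7.02% held it. The interferon-stimulated response element core (a pair of GAAA boxes, 2 bases apart) was in the windows of Psmb3, Psmd4 and Psmd9 and in 2.98% of all windows. The antioxidant response element (TGACNNNGC), bound by Nfe2l1, the activator of constitutive subunit genes when proteasome activity is low, was in those of Psmb6, Psmc6, Psmd12 and Psmd9 and in 10.2% of all. Between the Psmb9 and Tap1 starts lay a GC box (GGGCGG), 55 bases before the Psmb9 start, and a CCAAT box at 8 bases. The GC box was in 18 of the 33 subunit windows and 32.7% of all, and the CCAAT box in 13 of 33 and 33.8% of all. None of the marked motifs overlapped another in the sequences shown, and the Psmb10 window held none of the 5.

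Psmb9, the immunoproteasome subunit that replaces Psmb6, was 10.39, 10 and 10.45 in WT-nl-SP and 9.93, 10.42 and 10.44 in WT-l-SP (normalised log2 intensity, replicates in order). It was 10.14, 9.77 and 10.92 in KO-nl-SP and 11.01, 9.22, 10.66 and 10.23 in KO-l-SP. In marrow it was 9.64, 9.54 and 9.68 in WT-nl-BM, 9.53, 10.27, 10.32, 10.93 and 10.1 in WT-l-BM, 9.38, 10.91 and 9.36 in KO-nl-BM, and in the 6 KO-l-BM arrays 9.08 at the lowest, 9.85 at the median and 10.93 at the highest. WT-nl-BM was low and tight and the knockout groups were wide, with KO-l-SP holding both the highest and the second lowest array. Group means ran from 9.62 ± 0.071 (SD, n = 3) in WT-nl-BM through KO-nl-BM, KO-l-BM, WT-l-BM and WT-l-SP to KO-nl-SP, KO-l-SP and WT-nl-SP, the last at 10.28 ± 0.24 (SD, n = 3). No step between neighbours in that order was larger than the wider of the neighbours' SDs.

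Psmb10, which replaces Psmb7, was 10.16, 10.65 and 10.13 in WT-nl-SP, 10.2, 10.64 and 10.06 in WT-l-SP, 10.38, 10.67 and 10.87 in KO-nl-SP and 11.07, 9.6, 11 and 10.61 in KO-l-SP. In marrow it was 10.09, 9.99 and 10.44 in WT-nl-BM, 10.36, 10.1, 10.48, 10.88 and 10.27 in WT-l-BM, 9.16, 10.89 and 9.81 in KO-nl-BM, and 9.51 to 11.05 with a median of 10.01 in KO-l-BM. The groups overlapped, from a mean of 9.95 ± 0.88 (SD, n = 3) in KO-nl-BM to 10.64 ± 0.25 (SD, n = 3) in KO-nl-SP. Psmb8, a catalytic subunit with chymotrypsin-like activity, had group means from 7.76 ± 0.071 (SD, n = 3) in WT-nl-BM to 8.22 ± 0.55 (SD, n = 3) in KO-nl-SP. It ranged from 7.19 on KO-l-SP replicate 2 to 8.85 on KO-nl-SP replicate 6, and each of these 2 arrays lay among the 5 whose nearest array was of the other tissue. KO-nl-BM replicate 2 (8.52, against 7.44 and 7.59 on the others of its group) and WT-l-BM replicate 4 (8.75, against 7.41 to 8.07) were high for Psmb8 as they were for Psmb9 and Psmb10.

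**Figure D1:**
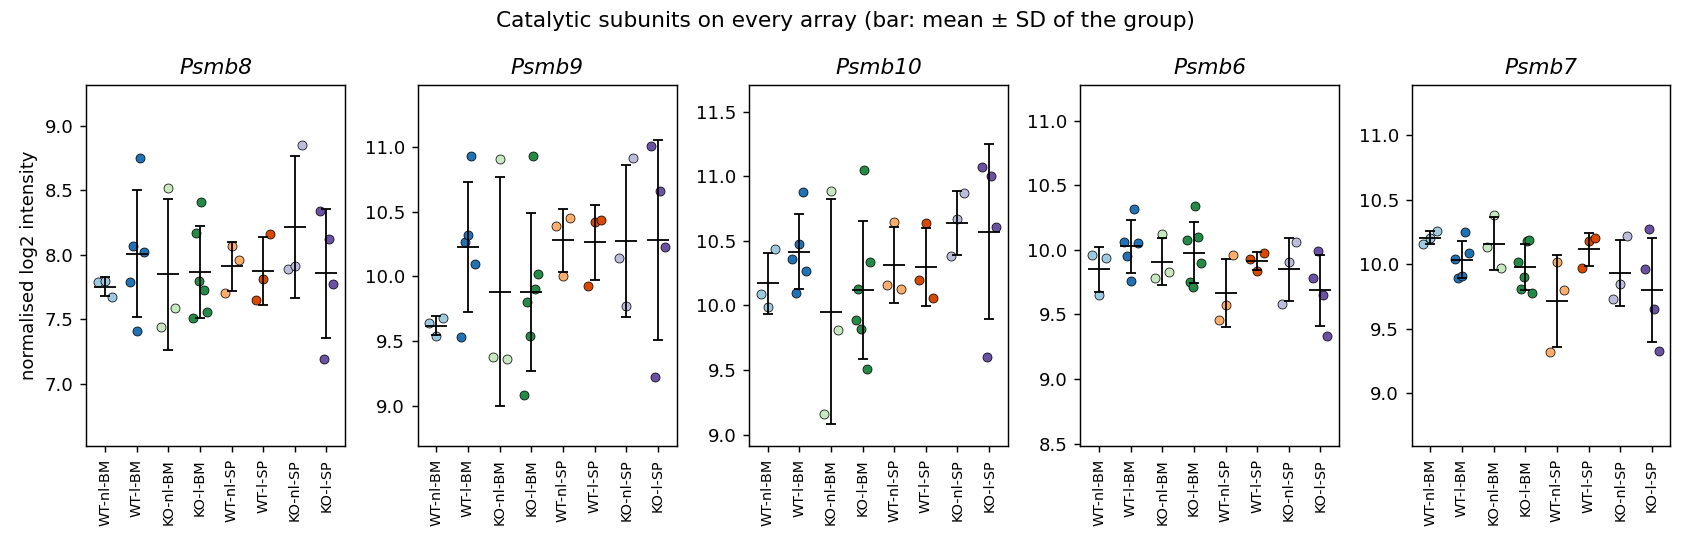
Normalised log2 intensity of Psmb8, Psmb9, Psmb10, Psmb6 and Psmb7 by group (points: arrays; bars: mean ± SD). All panels span the same width of log2 scale, and the immunoproteasome subunits scatter more within groups than Psmb6 and Psmb7; Psmb9 reaches from 9.08 to 11.01.

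The constitutive subunits that Psmb9 and Psmb10 replace were steadier. Psmb6 group means lay between 9.66 ± 0.26 (SD, n = 3) in WT-nl-SP and 10.03 ± 0.2 (SD, n = 5) in WT-l-BM, and Psmb7 means between 9.71 ± 0.36 (SD, n = 3) in WT-nl-SP and 10.21 ± 0.049 (SD, n = 3) in WT-nl-BM. The SD within groups, pooled over the 8 groups, was 0.574 for Psmb9, 0.49 for Psmb10 and 0.419 for Psmb8, against 0.221 for Psmb6 and 0.238 for Psmb7. Class medians of this SD were 0.22 for the core alpha subunits, 0.211 for the core beta, 0.204 for the base ATPases, 0.227 for the non-ATPases and 0.254 for the assembly chaperones, and the median of all genes tested was 0.269. The immunoproteasome subunits stood at percentiles 76.5 to 87.4 of all genes. This spread was not tested, and it is a property of these arrays.

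Across the 30 arrays Psmb9 correlated with Psmb8 and with Psmb10 at r = 0.77 each, and Psmb8 with Psmb10 at r = 0.68 (Pearson, a description of arrays that share slides and normalisation). After removal of the group means the values were 0.81, 0.77 and 0.69, so the relation was within groups. With the 29 constitutive subunits, Psma8 and Psmb11 left aside, the median r of the 3 was 0.11, and 0.22 after removal of the group means. Those 29 had a median r of 0.31 among themselves, and 0.3 after that removal. The median over all gene pairs was 0. Psmb9 and Psmb6 had r = 0.15, and Psmb10 and Psmb7 r = -0.07, against 0.3 and 0.1 after removal of the group means.

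The 5 genes closest to Psmb9 over the 30 arrays were Tapbpl, a peptide editor of MHC class I, and H2-T10 (r = 0.93 each), Tap1 (0.91), the interferon-induced GTPase Gbp2 (0.88) and H2-Q8 (0.87). For Psmb10 they were the nucleic acid sensor Zbp1 (0.86), Tap1 (0.85), 4933412E12Rik (0.84), Nlrc5, the transactivator of MHC class I genes (0.84), and Pomp, the chaperone that matures the core particle (0.83). For Psmb8 they were Gm4951 (0.85), Gbp3 (0.81), Gbp2, the interferon-induced chemokine Cxcl9 and Gm12250 (0.79 each). The mean of the 3 subunits correlated at r = 0.85 with the mean of 16 tested antigen-processing genes, a list that holds Tap1 and Nlrc5, while that of the constitutive mean with this list was -0.06. Its correlation with the macrophage list mean was 0.39, with the B cell mean -0.07, the T and NK cell mean 0.17, the erythroid mean -0.23, the neutrophil mean -0.19, the dendritic cell mean 0.08 and the proliferation mean -0.12. The constitutive mean had r = 0.73 with the mean of 18 proteasome partners, 0.55 with the proliferation, 0.46 with the neutrophil and -0.63 with the dendritic cell mean. With the partners the mean of the 3 immunoproteasome subunits had r = 0.34. After removal of the group means the correlations with the partners were 0.61 for the constitutive mean and 0.58 for that of the 3.

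**Figure D2:**
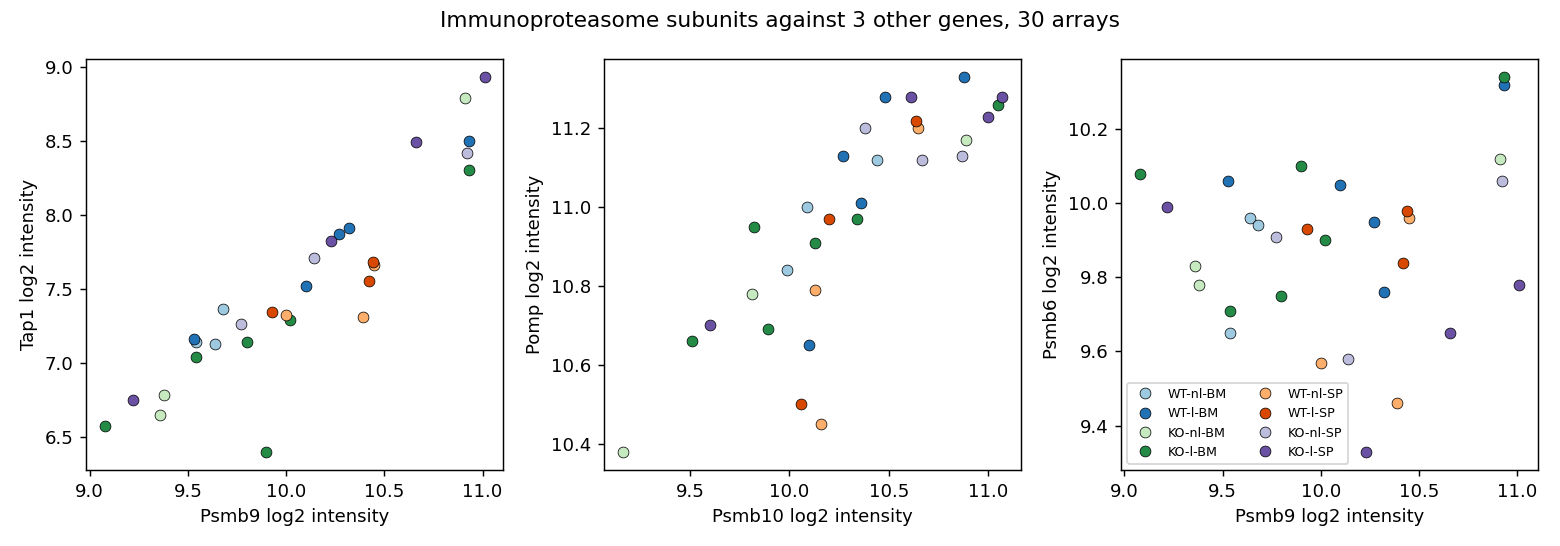
Psmb9 against Tap1, Psmb10 against Pomp and Psmb9 against Psmb6 on the 30 arrays (axes in normalised log2 intensity, colours by group). Over the 30 arrays the first 2 pairs rise together (r = 0.91 and 0.83), though Psmb10 and Pomp do not within KO-nl-SP, and the third is scattered (r = 0.15).

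No immunoproteasome subunit passed the threshold in any of the 13 comparisons. In spleen minus marrow without leukaemia Psmb9 was at +0.53 ± 0.32 (SE; limma adjusted p = 0.34), Psmb10 at +0.41 ± 0.27 (0.39) and Psmb8 at +0.26 ± 0.23 (0.56). Without the 5 arrays nearest to the other tissue these were +0.37, +0.35 and +0.1. With leukaemia in the spleen of wild-type mice the 3 were between -0.04 and -0.02 with SEs of 0.33 to 0.45, a spread at which small changes were not detectable. In leukaemic knockout spleen Psmb8 was at -0.36 ± 0.31, Psmb10 at -0.07 ± 0.36 and Psmb9 at 0 ± 0.42. Without the same 5 arrays these became 0.18, 0.37 and 0.67, all with adjusted p of 0.84 or more. In leukaemic marrow Psmb9 was at +0.61 ± 0.4 (adjusted p = 0.63) in wild-type and -0.01 ± 0.39 in knockout mice.

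Among the other classes the core subunits Psma2, Psma4, Psma5, Psma7 and Psmb1 to Psmb4, the ATPases Psmc1 to Psmc5 and most non-ATPases were detected on all arrays. Of the tested members 30 were detected on every array by the probe used, and 4 on some. These 4 were Psma8, a core subunit of the testis (mean 4.59), Psmb11, that of the thymic cortex (mean 4.29), Psmd2 (mean 4.61) and Psmc6 (mean 4.41), whose values lie near background. Group means of the constitutive members differed to varying degrees. For Psmc4, an ATPase of the base, they spanned 0.24 on the log2 scale, for Psma4 0.14 and for Psmd4, a ubiquitin receptor, 0.32. The widest spans were 1.51 for Psmb1 and 0.92 for Psmd14, followed by Psmd6 (0.74), Psmd13 (0.68), Psmd12 (0.63), Psmd7 (0.62) and Psmc3 (0.6). For the immunoproteasome subunits Psmb8, Psmb9 and Psmb10 the spans were 0.46, 0.66 and 0.69.

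**Figure D3:**
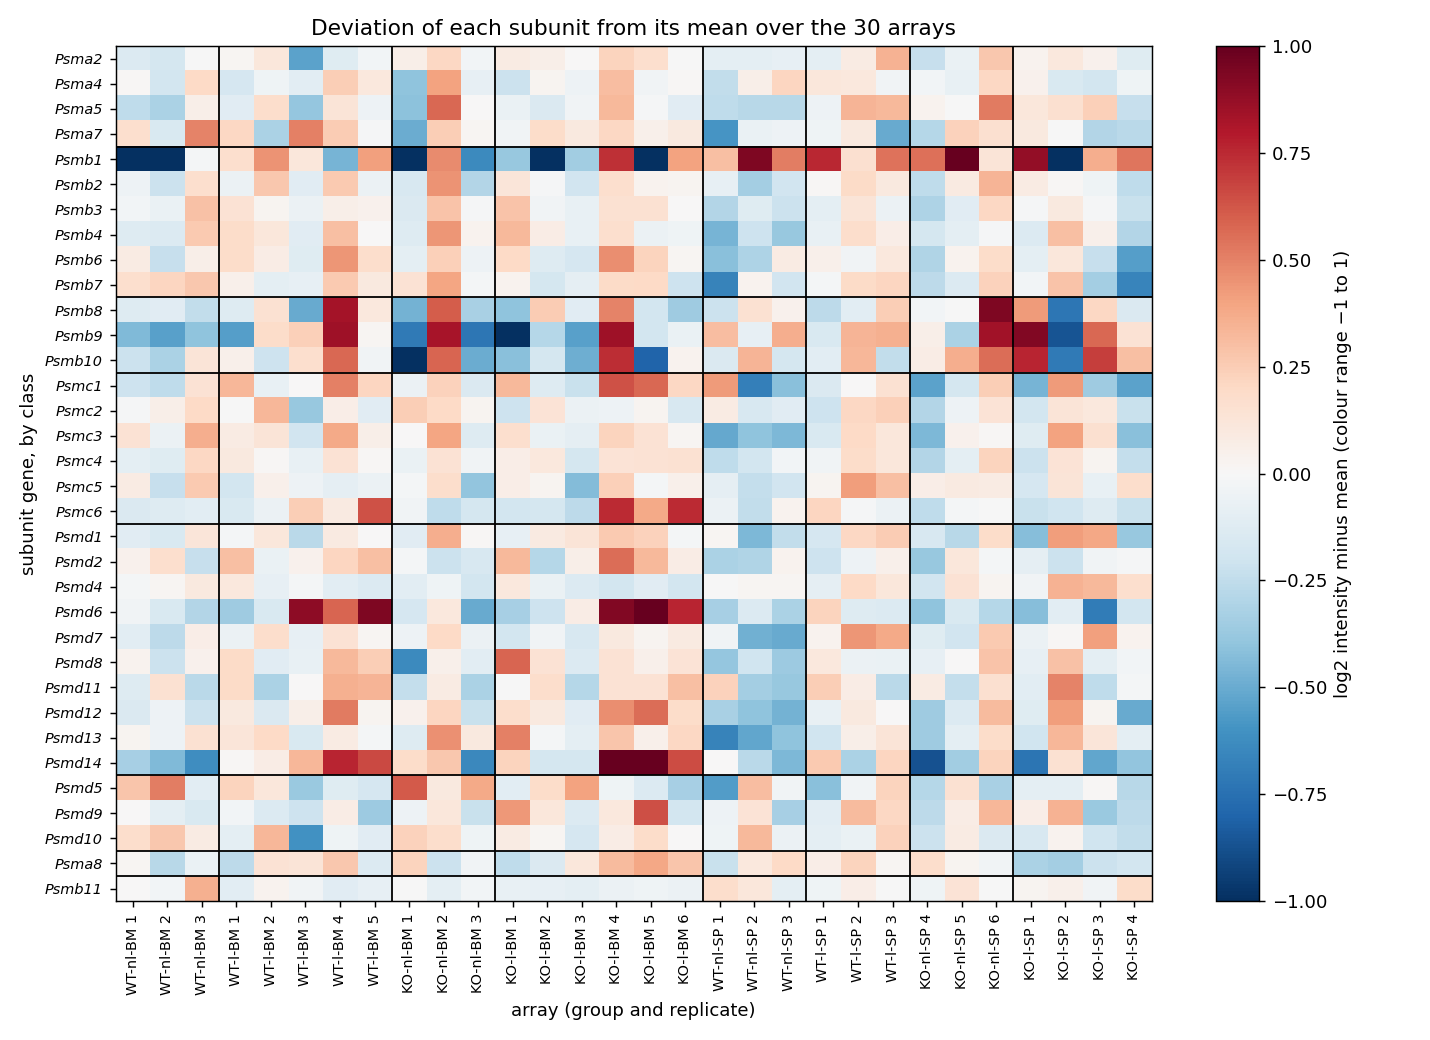
Each row is a subunit gene and each column an array; colour gives the normalised log2 intensity minus the gene's mean over 30 arrays, cut at -1 and 1, with lines between groups and classes. Psmb1 and the immunoproteasome rows show the strongest contrasts within groups, Psmd6 and Psmd14 are high on 6 leukaemic marrow arrays, and most constitutive rows are pale blue in WT-nl-SP.

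WT-nl-SP, the non-leukaemic wild-type spleen, was the group with the lowest mean for 17 of the 34 members, all of them constitutive. It was also the lowest group for 21.3% of all genes tested and the highest for 23.2%. Its 3 arrays enter the comparisons of leukaemia in wild-type spleen, of Mif loss in non-leukaemic spleen and of tissue without leukaemia, so the values of these 3 comparisons are not independent of each other. WT-nl-SP replicate 1 stood apart from all other arrays, at r = 0.919 with its most similar array, against 0.967 or more for every other array. Its macrophage list mean was 9.92, against 7.93 and 8.21 on replicates 2 and 3.

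With leukaemia in wild-type spleen 28 of the 34 members lay higher, with a median log2 difference of +0.22 against 0 over all genes. None was called (limma, adjusted p under 0.05; 0.142% of all genes), and 7 had an unadjusted p under 0.05, against 16.9% of all genes. All 10 non-ATPases (median +0.3), all 6 base ATPases (+0.24), all 4 core alpha (+0.15) and 5 of 6 core beta subunits (+0.28) were on the higher side. The 3 immunoproteasome subunits lay between -0.04 and -0.02, far inside their SEs, and no direction is read from them. Without the 5 arrays nearest to the other tissue Psmb8 was at -0.18 ± 0.33, Psmb9 at -0.11 ± 0.44 and Psmb10 at +0.1 ± 0.4 (SE). Of the 3 assembly chaperones 2 were higher, at a median of +0.02. Psmd7, a scaffold subunit of the lid, was 9.04, 8.59 and 8.57 in WT-nl-SP and 9.11, 9.51 and 9.45 in WT-l-SP. Its log2 difference was +0.62 ± 0.15 (SE; adjusted p = 0.065), and the groups did not overlap. The other 2 Psmd7 probes gave +0.34 and -0.25, so the probes disagreed.

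Psmd13, another lid subunit, was 10.3, 10.45 and 10.57 in WT-nl-SP and 10.77, 11.03 and 11.1 in WT-l-SP, a difference of +0.53 ± 0.17 (adjusted p = 0.12). The ATPase Psmc3 was 8.63, 8.74 and 8.69 against 8.99, 9.34 and 9.25, a difference of +0.5 ± 0.18 (adjusted p = 0.15). Psmc5 was 8.98, 8.83 and 8.88 against 9.1, 9.49 and 9.37, at +0.42 ± 0.15 (adjusted p = 0.15). A second Psmc5 probe correlated with the one used at only r = 0.14. In each of these genes every leukaemic array lay above every non-leukaemic one. That held for 10 of the 34 members, Psma5, Psmb2, Psmb3, Psmb4, Psmc3, Psmc5, Psmd7, Psmd8, Psmd12 and Psmd13, against 8.18% of all genes, and for none in the lower direction, against 7.78%. Psmb7 was at +0.4 ± 0.19 (adjusted p = 0.29) and Psmb6 at +0.26 ± 0.18 (adjusted p = 0.51).

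On slide 5, with 1 array of WT-l-SP and 1 of WT-nl-SP, 28 of 34 members were higher with leukaemia, with a median of +0.27. That WT-l-SP array, replicate 3, is among the 5 nearest to the other tissue and had the highest neutrophil mean, 11.85. Without the 5 arrays the median was +0.22. Markers of other cells moved with these subunits. All 14 erythroid genes (median +1.86), all 16 neutrophil genes (+1.5) and all 9 proliferation genes (+1.82) lay higher in WT-l-SP, and 8 of 11 macrophage genes lower (-1.05). The erythroid list mean was 4.68 to 6.74 in WT-nl-SP and 6.63 to 8.87 in WT-l-SP, and the neutrophil mean 5.73 to 7.14 against 5.95 to 11.85. Their part in the result was not tested.

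In knockout spleen 14 of 34 members were higher with leukaemia and the median was -0.05. None was called and 0% of all genes was, with 2 at an unadjusted p under 0.05 (5.31% of all genes): Psma8 at -0.32 ± 0.15 (adjusted p = 0.88) and Psmd4 at +0.21 ± 0.1 (adjusted p = 0.88). Psmb8 and Psmb6, at -0.36 and -0.16, had the next smallest p. The median was +0.08 in the authors' log2 values and -0.25 with scaling to the 75th percentile, so its direction depends on the processing. With the replicate block in the model it was +0.06. Psmd7 was 8.95, 8.88 and 9.33 in KO-nl-SP and 9.01, 9.08, 9.48 and 9.11 in KO-l-SP, and Psmd13 was 10.61, 10.87 and 11.15 against 10.77, 11.3, 11.09 and 10.87, so that the groups overlapped for both. Groups did not overlap for 1 member, Psma8, which was lower in KO-l-SP (3.06% of all genes). Without the 5 arrays nearest to the other tissue Psmd7 was at +0.28 ± 0.16, Psmd13 at +0.17 ± 0.16 and Psmd4 at +0.18 ± 0.12 (SE). Their limma adjusted p was 0.83 to 0.88. On all arrays 13 of 14 erythroid genes (median +1.1) and all 9 proliferation genes (+0.96) lay higher in KO-l-SP. All 11 macrophage genes lay lower (-0.81), and 7 of 16 neutrophil genes were higher (-0.11). Their part in the result was not tested. Whether leukaemia differed between the genotypes was not tested.

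Over both genotypes in spleen the members with the smallest p were Psmd7 at +0.37 ± 0.1 (adjusted p = 0.12), Psmd13 at +0.33 ± 0.12 (0.17), Psmc3 at +0.32 ± 0.12 (0.2) and Psmb4, a core beta subunit, at +0.24 ± 0.11 (0.27). The log2 difference of another Psmd7 probe lay 0.5 from that of the probe used. Without the 5 arrays Psmd7 was at +0.43, Psmd13 at +0.31 and Psmc3 at +0.28, with adjusted p of 0.14 to 0.43. None was called, against 0.00838% of all genes, and 4 had an unadjusted p under 0.05, against 15.8% of all genes. In the contrast of spleen with marrow for the effect of leukaemia none was called (0% of all genes), 2 had an unadjusted p under 0.05 (13.2% of all genes), and Psmd7 (+0.33 ± 0.14), Psmc3 (+0.36 ± 0.17), Psmd13 (+0.32 ± 0.16) and Psmd5 (+0.36 ± 0.2) led, with adjusted p of 0.33 to 0.46.

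**Figure D4:**
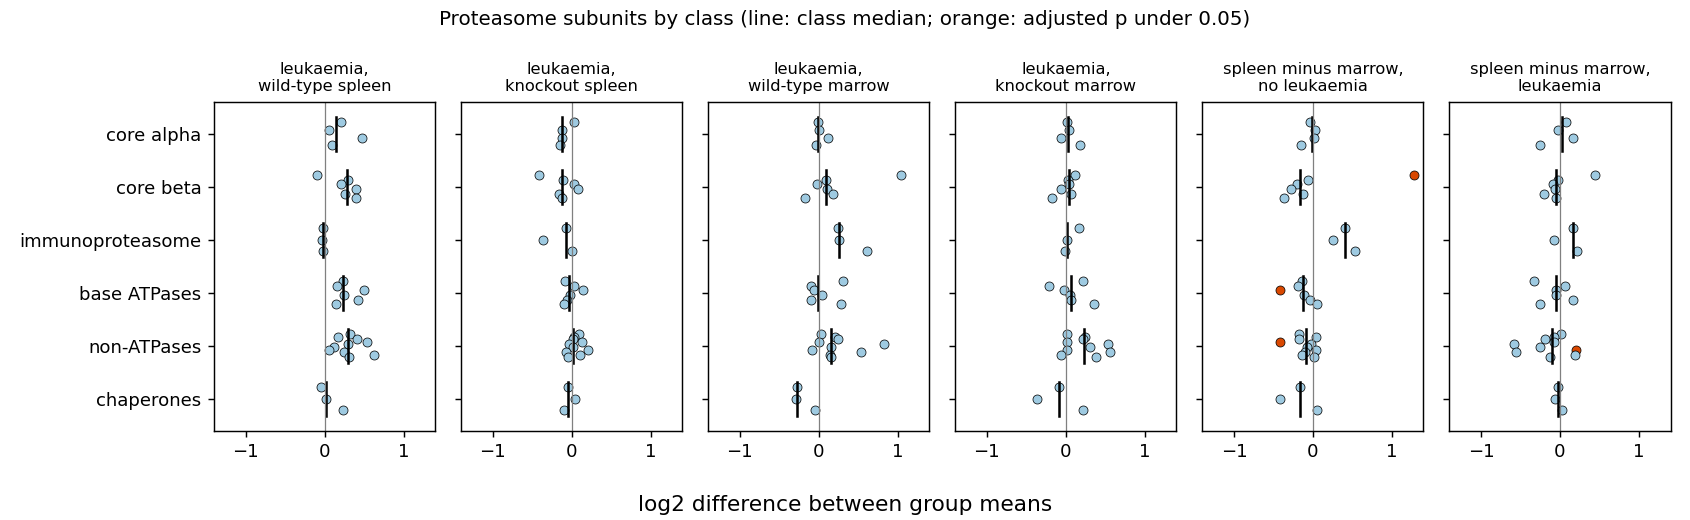
Log2 differences of the member genes by class in 6 comparisons (points: genes; line: class median; orange: adjusted p under 0.05). In wild-type spleen nearly all core alpha, core beta, ATPase and non-ATPase subunits lie right of 0, class medians +0.15 to +0.3, with the chaperones at +0.02, and in knockout spleen around 0; Psmb1 stands out at +1.28 between the tissues.

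In marrow, leukaemia gave no called member over both genotypes (0.00838% of all genes), in wild-type mice (0%) or in knockout mice (0%), with 6, 3 and 2 members at an unadjusted p under 0.05 (14.9%, 10.5% and 6.71% of all genes). The leading members over both genotypes were Psmd14, the deubiquitinase of the lid, at +0.68 ± 0.21 (adjusted p = 0.17), Psmd6, a lid subunit, at +0.55 ± 0.2 (0.21), Psmd8 at +0.27 ± 0.11 (0.24) and the assembly chaperone Psmd5 at -0.33 ± 0.14 (0.26). In wild-type marrow they were Psmd14 (+0.83 ± 0.31), Psmb1 (+1.04 ± 0.47), Psmb11 (-0.17 ± 0.082) and Psmd10 (-0.28 ± 0.14), with adjusted p of 0.34 to 0.49, and Psmd14 was the only member without overlap, in the higher direction (3.02% of all genes), with none in the lower (5.48%). In knockout marrow they were Psmd8 (+0.38 ± 0.15), Psmd2 (+0.31 ± 0.14), Psmd6 (+0.56 ± 0.28) and Psmd5 (-0.37 ± 0.19), with adjusted p of 0.72 to 0.75, and no member was without overlap (1.73% of all genes higher and 2.08% lower).

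Psmd14 and Psmd6 were highest on slide 6. Psmd6 was 5.97 to 6.4 on the 6 arrays of that slide and 5.03 to 5.46 on the 5 leukaemic marrow arrays of other slides. On all 24 other arrays it was 4.69 to 5.61. Psmd14 was 8.68 to 9.49 on slide 6, 8.17 to 8.57 in leukaemic marrow elsewhere and 7.48 to 8.62 on all other arrays. Slide 6 thus lay wholly above the rest for these 2 of 34 members, and wholly above or below it for 1.37% of all genes. The second probes for Psmd14 and Psmd6 correlated with the first at r = 0.89 and 0.8. With slide as a fixed block the leukaemia difference in marrow was -0.04 ± 0.13 for Psmd6 and +0.25 ± 0.22 for Psmd14. Other slides held 1 leukaemic and 1 non-leukaemic marrow array of the same genotype. There Psmd14 differed by +0.45 on slide 2 and +0.7 on slide 4 in wild-type mice, and by +0.04 on slide 1 in knockout mice. For Psmd6 these differences were -0.2, +0.14 and -0.17.

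**Figure D5:**
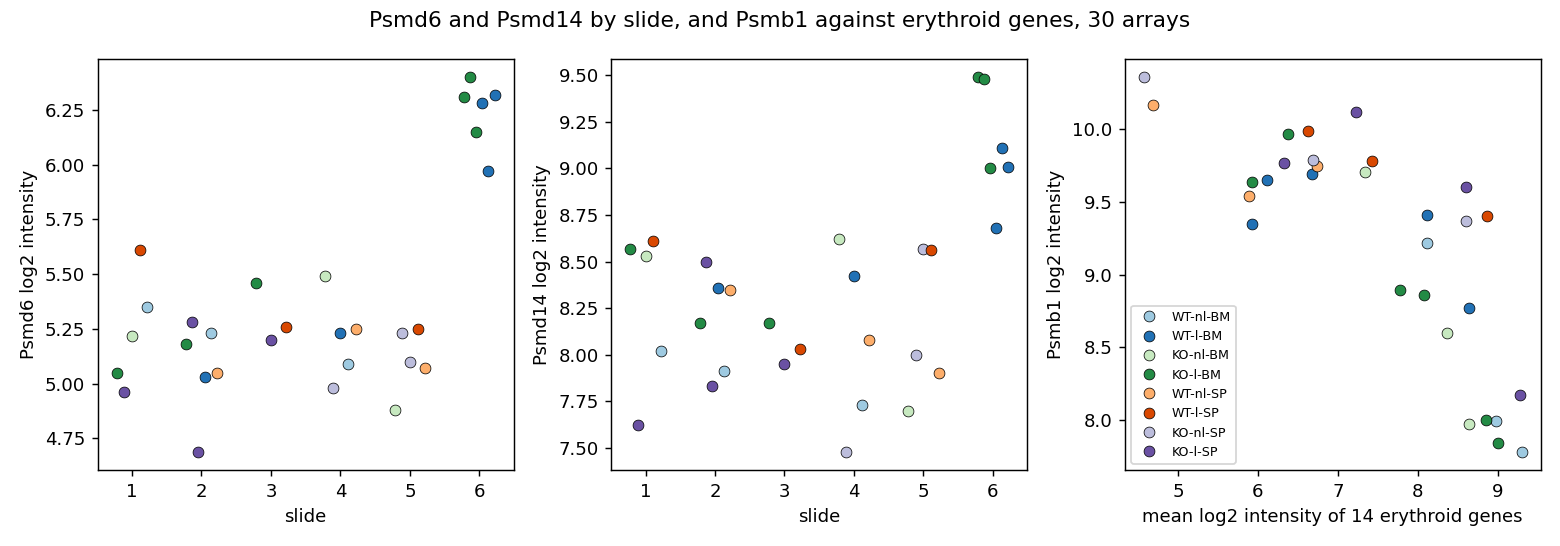
Psmd6 and Psmd14 by slide, and Psmb1 against the mean of 14 erythroid genes (points: arrays, coloured by group; normalised log2 intensity). Psmd6 and Psmd14 sit highest on slide 6, at 5.97 or more and 8.68 or more, and Psmb1 falls as the erythroid mean rises (r = -0.78).

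Between the tissues of non-leukaemic mice 3 members were called by limma, 1 higher and 2 lower in spleen, against 7.77% of all genes (3.03% higher, 4.73% lower). Psmb1, a non-catalytic beta subunit, was 9.54, 10.17 and 9.75 in WT-nl-SP and 9.79, 10.36 and 9.37 in KO-nl-SP. In marrow it was 7.99, 7.78 and 9.22 in WT-nl-BM and 7.97, 9.71 and 8.6 in KO-nl-BM. All 6 spleen arrays were above 5 of the 6 marrow arrays, and KO-nl-BM replicate 2 lay among them. The difference was +1.28 ± 0.37 (adjusted p = 0.034), and +1.4 ± 0.38 (adjusted p = 0.021) without the 5 arrays nearest to the other tissue. It was +1.49 in wild-type and +1.08 in knockout mice. Psmb1 is measured by 1 kept probe.

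Psmb1 had the largest SD within groups of all members, 0.674, at percentile 91.1 of all genes. Over the 30 arrays it correlated at r = -0.78 with the erythroid list mean, and at -0.78 also after removal of the group means. The correlations with the proliferation mean were -0.59 and -0.4, with the neutrophil mean -0.46 and -0.2 and with the macrophage mean 0.3 and 0.08. With the antigen-processing mean they were 0.65 and 0.5. All 14 erythroid genes were lower in non-leukaemic spleen than in marrow, with a median of -2.49, and so were all 16 neutrophil genes (-3) and all 9 proliferation genes (-2.38). Their part in the result was not tested.

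Psmd13 was lower in non-leukaemic spleen, at -0.41 ± 0.12 (adjusted p = 0.036), with 11, 10.92 and 11.12 in WT-nl-BM and 10.84, 11.43 and 11.07 in KO-nl-BM. Psmc3 was lower by the same -0.41 ± 0.13, at an adjusted p of 0.05 that fell just under the threshold before rounding. It was 9.28, 9.08 and 9.5 in WT-nl-BM and 9.14, 9.53 and 9.01 in KO-nl-BM, against 8.69, 9.18 and 9.15 in KO-nl-SP. The 3 WT-nl-SP arrays lay below all KO-nl-SP arrays for Psmd13, while 1 KO-nl-SP array fell among them for Psmc3. The difference was -0.57 in wild-type and -0.24 in knockout mice for Psmd13, and -0.6 and -0.22 for Psmc3. Without the 5 arrays the values were -0.47 (adjusted p = 0.0069) and -0.44 (adjusted p = 0.035), and Psmb7, at -0.36 ± 0.14 (adjusted p = 0.1) on all arrays, was called at -0.43 (adjusted p = 0.037). Psmb6 was at -0.12 ± 0.13 (adjusted p = 0.62).

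With leukaemia 1 member was called between the tissues, against 6.7% of all genes (3.6% higher, 3.1% lower). Psmd4 was 11.08, 11.37 and 11.29 in WT-l-SP and 11.14, 11.52, 11.5 and 11.34 in KO-l-SP, and 11.28, 11.09, 11.15, 11.07 and 11.04 in WT-l-BM and 10.99 to 11.28 with a median of 11.05 in KO-l-BM. The tissues overlapped. The difference was +0.21 ± 0.064 (adjusted p = 0.049), and +0.19 (adjusted p = 0.097) without the 5 arrays. Slide 6 held 6 of the 11 leukaemic marrow arrays and no spleen array, and with slide as a fixed block Psmd4 was at +0.15 (adjusted p = 0.49). Psmd6 at -0.56 ± 0.2 (adjusted p = 0.081) and Psmd14 at -0.58 ± 0.21 (adjusted p = 0.086) came next, and with slide as a fixed block they were at +0.02 and -0.1. Without the 5 arrays Psmd6 and Psmd14 were the members called, both lower in spleen, against 12.4% of all genes called in that fit. Psmb1 was at +0.45 in this comparison, and at +0.68 (adjusted p = 0.22) without the 5 arrays.

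None of the 4 calls held in every fit. With 1 array left out, Psmb1 kept its call in 22 of 30 fits, Psmd13 in 23, Psmc3 in 8 and Psmd4 in 7, with log2 differences of 1.08 to 1.52, -0.47 to -0.33, -0.46 to -0.33 and 0.18 to 0.25. The adjusted p was highest, at 0.11, without KO-nl-BM replicate 1 for Psmb1, at 0.11 and 0.15 without KO-nl-SP replicate 4 for Psmd13 and Psmc3, and at 0.16 without WT-l-SP replicate 2 for Psmd4. With the replicate number as a block, a number that the labels do not tie to an animal, the limma adjusted p was 0.16, 0.092, 0.12 and 0.19.

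With loss of Mif none of the 34 members tested was called in leukaemic marrow or leukaemic spleen (0.0419% of all genes in each), in non-leukaemic marrow (0.0754%) or in non-leukaemic spleen (0.268%), and 0, 1, 0 and 4 members had an unadjusted p under 0.05 (2.9%, 5.29%, 5.65% and 10.2% of all genes). In leukaemic marrow, the largest groups, the median difference was +0.01. Psma2 (+0.2 ± 0.1), the chaperone Psmd9 (+0.29 ± 0.15), Psmb1 (-0.5 ± 0.39) and Psmd10 (+0.14 ± 0.12) led, Psmb9 was at -0.35 ± 0.33 and Psmb10 at -0.3 ± 0.29, and every adjusted p was 1. On slide 6, with 3 arrays of each genotype, Psmb8, Psmb9 and Psmb10 were at -0.16, -0.17 and -0.25.

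In leukaemic spleen 26 of 34 members were lower in the knockout, at a median of -0.11, with Psma8 (-0.37 ± 0.15), Psmb7 (-0.31 ± 0.18), Psmc5 (-0.23 ± 0.14) and Psmb6 (-0.23 ± 0.17) leading at adjusted p of 0.92 to 1. Psma8 and Psmc6, both near background, did not overlap between the genotypes there (2.95% of all genes lower). Without the 5 arrays 9 members were higher, at a median of -0.16, and Psmb8, Psmb9 and Psmb10 were at +0.35, +0.46 and +0.48, against -0.01, +0.01 and +0.27 on all arrays. In non-leukaemic marrow Psmb11, Psma2, Psmd4 and Psma5 led, at -0.15, +0.18, -0.14 and +0.23 with adjusted p of 0.92 to 0.94, and Psmd4 was without overlap, lower in the knockout (9.66% of all genes). In non-leukaemic spleen 25 of 34 members were higher in the knockout, at a median of +0.14. On slide 4, with 1 array of each genotype, 14 were higher at a median of -0.08, on slide 5, with 2 knockout arrays and 1 wild-type array, 29 at +0.24, and without the 5 arrays 20 at +0.04. All 16 neutrophil genes (median +1.38), 13 of 14 erythroid genes (+0.84) and all 9 proliferation genes (+0.8) also lay higher in the knockout. The neutrophil mean was 7.31 to 9.5 in KO-nl-SP and 5.73 to 7.14 in WT-nl-SP, and the erythroid mean 4.57 to 8.61 against 4.68 to 6.74. Their part in the result was not tested. Psmd13 (+0.44 ± 0.17), Psma5 (+0.45 ± 0.2), Psmd8 (+0.39 ± 0.17) and Psmd7 (+0.32 ± 0.15) led, with adjusted p of 0.33 to 0.47. The log2 difference of another Psmd7 probe lay 0.56 from that of the probe used. For Psma5, Psmb4, Psmc5, Psmd8 and Psmd13 the 3 KO-nl-SP arrays all lay above the 3 WT-nl-SP arrays (5.8% of all genes), and for no member below them (5.24%). For Psma5 these were 11.34, 11.3 and 11.82 against 11.05, 11.03 and 11.03.

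Of the proteins that work with the proteasome 18 of 26 listed genes were tested, and of antigen processing 16 of 18. In non-leukaemic mice Psme3, the nuclear proteasome activator, was lower in spleen than in marrow by limma, at -0.73 ± 0.19 (adjusted p = 0.021). It was the only partner called, and no antigen-processing gene was, against 7.77% of all genes. B2m (+0.42), H2-D1 (+0.52) and the transcription factor Irf1 (+1.1) led there, at adjusted p of 0.088 to 0.1. Of the 16 genes 14 were higher in spleen, against 6344 of the 11937 genes tested. In leukaemic mice Rad23b, a shuttle for ubiquitinated proteins, was lower in spleen at -0.46 ± 0.1 (adjusted p = 0.012). The shuttle Ubqln4 was higher at +0.51 ± 0.13 (adjusted p = 0.022), and Tap2, the partner of Tap1, was higher at +0.63 ± 0.19 (adjusted p = 0.048). Slide 6 held leukaemic marrow arrays and no spleen array. With slide as a fixed block 0.251% of all genes were called between the leukaemic tissues, against 6.7% in the main fit. No value with slide as a block is given for these genes. No gene of either list was called in the other 11 comparisons.

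In wild-type spleen with leukaemia 14 of the 18 partners were higher, at a median of +0.18, and 7 of the 16 antigen-processing genes, at -0.06. The assembly chaperones Psmg1 (+0.56 ± 0.2) and Psmg2 (+0.57 ± 0.24), the deubiquitinase Uchl5 (+0.82 ± 0.31) and the chaperone Calr (+1.33 ± 0.44) had the smallest p, with adjusted p of 0.13 to 0.22. In leukaemic marrow over both genotypes these were Ecpas (+0.48 ± 0.15), Psme3 (-0.45 ± 0.17), Rad23b (+0.28 ± 0.11), Jak1 (+1.1 ± 0.24) and H2-K1 (+1.16 ± 0.38), at adjusted p of 0.1 to 0.23. With loss of Mif, Tapbp, the peptide editor tapasin, at -0.57 ± 0.21 and Tap1 at -0.67 ± 0.39 led in leukaemic marrow, and Psmg1 (-0.46 ± 0.18) and Uchl5 (-0.62 ± 0.29) in leukaemic spleen, at adjusted p of 0.92 to 1.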

How the data were processed

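Total RNA of sorted cells was labelled as biotin cRNA and hybridised to bead arrays, per the labels' protocols. Linear-scale intensity and a detection p-value were deposited for each probe and array, with array medians of 76.5 to 96.8 that had not been made equal. The authors' processed log2 values were deposited separately; Partek is named in the submitters' processing notes, but no source used here gives its settings. For a median gene, differences between slides made up 0.136% of the variance inside groups in the authors' log2 values and 17.4% in the values used here; no label states a slide adjustment. Their scale is log2; their centring is unknown (each column median 6.41).

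Intensities were background-corrected and quantile normalised with neqc (limma 3.58.1, R 4.3.3, offset 16, negative controls inferred from detection p-values). The 23515 probes that passed a detection p of 0.05 on 3 or more arrays were used, and each gene was represented by its kept probe with the highest mean. The platform annotation gave 1 symbol for 34885 probes, several for 18 and none for 10378, and 34807 were matched to RefSeq (GRCm38.p6) by gene ID. One model with the 8 groups was fitted to 11937 genes (lmFit, eBayes), 13 contrasts were tested, and p-values were adjusted by Benjamini-Hochberg over all genes, called under 0.05. The fit was tested on simulated data. No 2 arrays held identical values (highest r = 0.994). The number of arrays limits the precision.

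The members, classes, gene lists and naming rule were chosen with earlier results of these data known. Named are Psmb6 to Psmb10 always, called members (up to 8 per direction) or else the 4 with the smallest p, partner and antigen-processing genes called or else among the 3 with the smallest p, and the 5 genes most correlated with each immunoproteasome subunit; Psmd6, Psmd14 and Psmb1 were followed further after their values were seen. Promoter letters came from the RefSeq table, given on the gene's strand: all 1627 overlapping windows on opposite strands matched as reverse complements. Same-numbered replicates showed no general likeness (73 pairs, r from -0.5 to 0.52, median -0.01, 20 over 0.1). This cannot tell whether some arrays share an animal, since the labels do not tie the numbers to animals. Alternatives were the authors' values, no background correction, 75th percentile scaling, no or a strict filter (p under 0.01 on 15 arrays), slide as fixed or random block, replicate block, only the groups compared, array weights, all kept probes, slide 6 alone, leaving out WT-nl-SP replicate 1 together with KO-l-SP replicate 2, and each array left out. The fit without the 5 arrays nearest to the other tissue was added after seeing the data.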

Additional observations from a re-analysis of the deposited data

Results flagged for a closer look

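Among 102 gene and group combinations with 4 or more arrays, 2 held an array far from the others by Dixon's criterion, which flags about 1 group in 20 by chance. Psma5, a core alpha subunit, was 11.63 on KO-l-BM replicate 4, with the nearest array of the group at 11.29 and the farthest at 11.16. Psmc4, a base ATPase, was 10.07 on KO-l-BM replicate 3, with the nearest at 10.31 and the farthest at 10.4.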

How the results depend on the processing

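Counts of called members are small and depend on the fit. The authors' log2 values called 10 members for leukaemia in spleen (24.8% of all genes), 9 in wild-type spleen (14.5%), 1 for spleen against marrow in leukaemia's effect (3.09%), 8 between tissues without (23.1%) and 3 with leukaemia (12.1%). Array weights called 10 for leukaemia in marrow (18.7%), 2 each in knockout and wild-type marrow (2.94% and 10.1%), 1 in wild-type spleen (0.687%) and 3 between leukaemic tissues (16.4%). Slide as a fixed block called 1 for leukaemia in spleen (Psmd13), 1 in wild-type spleen (Psmd7) and 0 between leukaemic tissues, where slide as a random block, 75th percentile scaling, the strict filter, the replicate block and the compared groups alone also called 0, all kept probes called 4, and the fits without 2 or without 5 arrays each called 2. Without leukaemia the tissue count was 0 with the replicate block or the compared groups alone, and 1 with 75th percentile scaling, no filter or without 2 arrays. With each array left out in turn the counts were 0 to 1 for leukaemia in spleen and in wild-type spleen, 0 to 2 between leukaemic tissues, 0 to 3 between non-leukaemic tissues and 0 to 0 elsewhere. The cause was not tested. Of 4791 recomputed differences of named members, 38 gained a call and 38 moved by more than the spread between replicates. A call was lost 81 times, all among the recomputed values of the 4 differences called in the main fit, the only ones that could lose one. No called difference changed sign. Sign changes numbered 62 of 3420 with 1 array left out and 99 of 1371 in the other fits, all among uncalled differences. Probes near background (Psmc6, Psmd2, Psma8, Psmb11) have compressed differences.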

Other observations

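For 18 member genes with several kept probes, 23 further probes were measured. Their correlation with the probe used over the 30 arrays ranged from -0.08 for Psmc2 and 0.14 for a Psmc5 probe to 0.92 for Psma7 and 0.94 for Psmb10. The second Psmb8 probe had r = 0.76, and the 3 further Psmb7 probes 0.78, 0.83 and 0.52. The other Psmd7 probes had r = 0.36 and 0.18, and that of Psma8 0.2. Further probes of Psmc2, Psmc5, Psmd7 and Psma8 thus give no clear second reading of the same pattern. Between 13 and 19 of the 23 had the sign of the probe used, depending on the comparison.

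Outside the naming rule, the genes closest to Psmb1 over the 30 arrays were Rbms1 (r = 0.81), Luzp1 (0.79), Cramp1l (0.76), Paxx (0.75) and 1110038F14Rik (0.74), none of them another proteasome subunit. Those closest to Psmd6 were Arcn1 (0.94), Rsu1, Pdcd5, Morf4l1b and Ndufb5 (0.93 each), and those closest to Psmd14 were Txn1 (0.91), Clpx and Epg5 (0.9 each).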
